A study of Mus musculus with 31 samples.

Results

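The genes described here are the 3 vesicular glutamate transporters, Slc17a6 (VGLUT2), Slc17a7 (VGLUT1) and Slc17a8 (VGLUT3), and Glul (glutamine synthetase). They were chosen by name, which gives 4 of the 55421 mouse genes with a row in the deposited count table. The authors' normalized table holds a row for Slc17a6, Slc17a7 and Glul, and Slc17a8 was matched in the count table by its GENCODE M21 identifier. The study recorded single neurons by patch clamp in brainstem slices, drew out their cytoplasm and sequenced it with Smart-seq2, which makes full-length cDNA of polyadenylated RNA and amplifies it by PCR. There were 18 lateral olivocochlear (LOC) neurons, taken in the lateral superior olive, and 13 medial olivocochlear (MOC) neurons, taken in the ventral nucleus of the trapezoid body. The series' design text names ChAT-IRES-Cre; tdTomato mice for both groups, in which Cre at the Chat locus turns on a red reporter, and the labels give the genotype of every cell as wild-type. Neither states the age, the sex or the number of animals.

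A vesicular glutamate transporter loads glutamate into synaptic vesicles, and its presence marks a neuron that can release glutamate. Slc17a6 is the main form in much of the brainstem, Slc17a7 in cortex, hippocampus and cerebellar granule cells, and Slc17a8 in scattered neurons of other transmitters and in inner hair cells. Glul makes glutamine from glutamate and ammonia. It is known chiefly as an astrocyte enzyme that returns cleared glutamate to neurons as glutamine, and oligodendrocytes express it too.

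Every library came from a single cell, and since no label ties a cell to an animal, LOC and MOC are 1 sample each. No test was therefore run, and the SDs below give the spread between cells. LOC libraries held 356412 to 1404896 counts (median 768815) and MOC libraries 598028 to 2627174 (median 906622). Levels are counts per 1000000 (CPM) of a cell's total over mouse genes. Summed levels pool the counts of a group and carry exact 95% Poisson intervals, which cover counting error only, since PCR copies are not independent molecules. A gene was taken as measured when LOC or MOC had it in 25% of cells or more, which was so for 17754 genes. The defining cholinergic genes were not found in every cell. Chat (choline acetyltransferase), Slc18a3 (the vesicular acetylcholine transporter) and Slc5a7 (the choline transporter) together had fewer than 10 reads in 4 LOC and 5 MOC cells, at least 10 in 14 and 8, and at least 50 in 12 and 5. Genes used as markers of glia were read in every library, at very unequal levels. The 12 astrocyte markers summed to 1198 to 7595 CPM in LOC cells and 393 to 8097 in MOC cells. The 12 oligodendrocyte markers ran from 22.7 CPM in LOC 14 to 24.0% of the library in LOC 17.

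Of the 31 libraries, 3 stood apart in a member gene. LOC 14, MOC 2 and MOC 13 held 650, 731 and 413 CPM of Slc17a7, and the next highest cell, LOC 18, held 156. These 3 cells carried 1400 of all 2681 Slc17a7 reads, or 52.2%. Their cholinergic genes had 0, 45 and 1 reads. LOC 14 and MOC 13 resembled each other in other genes as well. Camk2a (a calcium-dependent kinase abundant in forebrain excitatory neurons) stood at 884 and 1477 CPM in them, against at most 339 in the 28 cells outside the trio. Nrgn (neurogranin, of the same neurons) stood at 1255 and 498 CPM, against at most 235. Both lacked the oligodendrocyte signal of the other libraries, with 22.7 and 364 CPM over the 12 markers, where Mbp alone had a median of 32318 CPM in those 28 cells. MOC 2 was different, with 6.69 CPM of Camk2a and only 3 reads of Glul. Its genes of cerebellar granule cells were uneven: Neurod1 and Cbln3 stood at 446 and 219 CPM, above medians of 116 and 78.7 in the 28 cells, whereas Gabra6 stood at 1.12 against 106 and Fat2 at 25.7 against 62.0. The main results on the members are given with and without these cells.

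The transporters are paralogs, so the stretches where their coding sequences are most alike were examined first, to see how far reads of one could count for another. Below are the longest exact matches between Slc17a6 and its 2 relatives, from GENCODE M21 transcripts on GRCm38, with the shared run in capitals and 15 bases of each gene's own sequence on either side.
Slc17a6 against Slc17a7 (exon 2, chr7:51625447-51625497, plus strand): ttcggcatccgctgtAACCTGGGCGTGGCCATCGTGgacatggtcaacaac
Slc17a7 against Slc17a6 (exon 2, chr7:45168881-45168931, plus strand): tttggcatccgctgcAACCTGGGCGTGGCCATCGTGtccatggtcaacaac
Slc17a6 against Slc17a8 (exon 2, chr7:51625403-51625457, plus strand): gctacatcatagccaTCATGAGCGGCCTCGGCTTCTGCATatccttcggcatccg
Slc17a8 against Slc17a6 (exon 2, chr10:89606653-89606707, minus strand): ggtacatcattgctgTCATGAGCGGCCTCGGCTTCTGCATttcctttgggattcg
The shared runs are 21 and 25 bases long, that between Slc17a7 and Slc17a8 is 17, and a read was 75 bases. None of 5533 distinct 75-base stretches of Slc17a6 transcripts and none of 5828 of Slc17a7 occurs in another annotated gene. Of the 4646 stretches of Slc17a8, 10 do. Glul is the exception, with 215 of 3241 stretches (6.63%) found elsewhere, 150 of them in the processed pseudogene Glns-ps1 and 42 in Teddm2 on the opposite strand. Glns-ps1 itself was given 9 reads over the 31 cells and Teddm2 63. The library kit keeps no strand, so reads in the overlap with Teddm2 cannot be assigned to either gene.

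Slc17a6 (ENSMUSG00000030500, GRCm38 chromosome 7, 51622006 to 51671119, plus strand) was read in 25 of 31 cells with 609 reads in all. In LOC cells it ran from 0 to 123 CPM with a median of 6.91, and in MOC cells from 0 to 58.5 with a median of 12.7. The groups overlapped, with 3 cells at 0 in each, and LOC 7 and LOC 14 alone lay above the highest MOC cell. The LOC cells with a read numbered 15 of 18 (83.3%, exact 95% Clopper-Pearson interval 58.6 to 96.4). Among MOC cells there were 10 of 13 (76.9%, 46.2 to 94.96). At least 5 reads were found in 10 LOC and 9 MOC cells. The summed level was 21.95 CPM in LOC (19.6 to 24.5) and 21.7 in MOC (19.3 to 24.3). On the log2(CPM + 1) scale, on which all differences here are given, the mean was 3.27 ± 2.35 in LOC (SD, n = 18 cells) and 3.17 ± 2.16 in MOC (n = 13 cells). The difference of 0.10 lay far inside the spread between cells, and the medians differed the other way, by -0.84. The difference of the means was -0.54 without the 3 libraries that stood apart. MOC 7, the deepest library, gave 34.8% of the MOC reads, and the MOC level was 17.5 CPM without it.

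Slc17a7 (ENSMUSG00000070570, chromosome 7, 45163949 to 45176142, plus strand) was the most widely read transporter, in 30 of 31 cells with 2681 reads. It ran from 0 to 650 CPM in LOC cells (median 57.6) and from 0.754 to 731 in MOC cells (median 47.6). Only LOC 17 had no read, and 15 LOC and 10 MOC cells had at least 5. The mean was 5.33 ± 2.22 in LOC (SD, n = 18 cells) and 5.19 ± 2.65 in MOC (n = 13 cells), a difference of 0.14. Without the 3 libraries that stood apart the difference was 0.61, with means of 5.09 ± 2.04 (n = 17 cells) and 4.48 ± 2.18 (n = 11 cells). Both differences were below either SD. The summed level was 85.9 CPM in LOC (81.2 to 90.9) and 107 in MOC (101 to 112), and the order of the groups turned on the 3 libraries that stood apart. Without them the summed level was 56.6 CPM over 17 LOC cells and 42.7 over 11 MOC cells.

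Slc17a8 (ENSMUSG00000019935, chromosome 10, 89574020 to 89621253, minus strand) was nearly absent at this depth. It had 5 reads in 4 LOC cells and 3 reads in 2 MOC cells, with no more than 2 in any cell. The summed level was 0.351 CPM in LOC (0.114 to 0.818) and 0.220 in MOC (0.0454 to 0.643), close to the 0.210 and 0.220 CPM that 3 counts over a whole group represent. No difference between the groups was detectable at this depth, and the gene was below the 25% limit in both groups and does not count as measured.

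Glul (ENSMUSG00000026473, chromosome 1, 153899944 to 153909723, plus strand) was the most abundant member, with 3744 reads in 29 of 31 cells. It ran from 0 to 413 CPM in LOC cells (median 122) and from 0 to 320 in MOC cells (median 81.8). LOC 9 was the highest LOC cell and MOC 10 the highest MOC cell, while LOC 13 and MOC 4 had no read. The mean was 6.57 ± 1.93 in LOC (SD, n = 18 cells) and 5.71 ± 2.41 in MOC (n = 13 cells). This difference of 0.86, the widest among the members, was below either SD. Pooled counts showed no such gap, with 135 CPM in LOC (129 to 141) and 133 in MOC (127 to 139). It narrowed to 0.06 among the cells with at least 10 cholinergic reads and turned to -0.26 among those with at least 50. It was 0.42 without the 3 libraries that stood apart. MOC 7 gave 42.2% of the MOC reads, and the MOC level without it was 95.4 CPM.

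**Figure D1:**
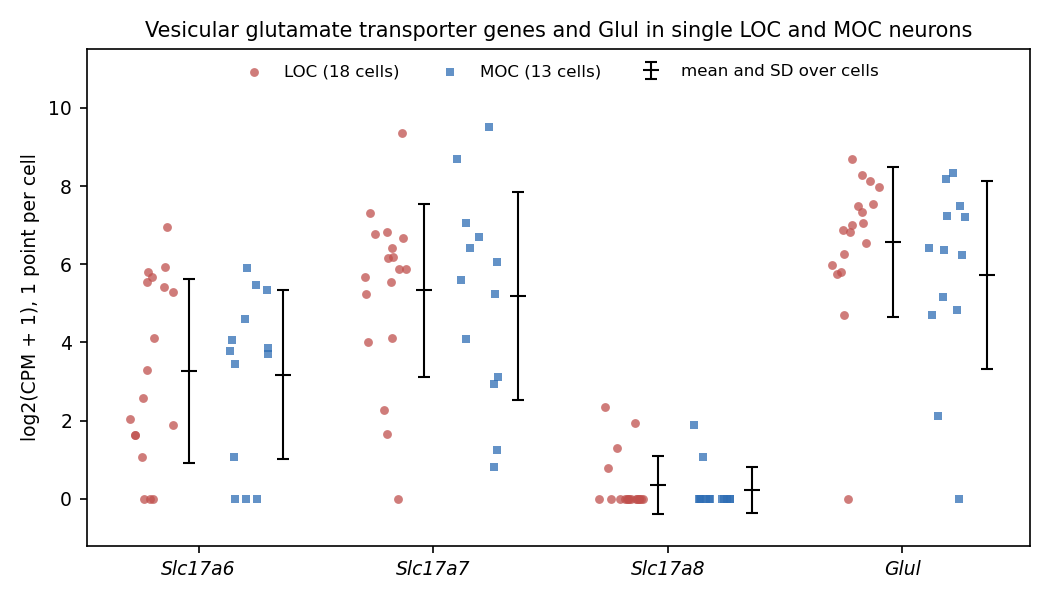
Levels of the 4 genes in single cells, as log2(CPM + 1) on the vertical axis, 1 point per cell, with LOC cells as circles and MOC cells as squares; black marks are the mean and SD over cells. The groups overlap in every gene, the means of LOC and MOC lie 0.10 (Slc17a6), 0.14 (Slc17a7), 0.12 (Slc17a8) and 0.86 (Glul) apart, and Slc17a8 lies at 0 in 14 LOC and 11 MOC cells.

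A size rule served to put these differences beside those of other genes. A gene met it when its summed level was 2 times the other group's or more, its mean log2 value was higher by 1 or more, and 25% or more of the higher group's cells had a read. Of the 17754 measured genes, 6.07% met it for LOC, 5.67% for MOC and 11.7% for either. Of the 3 measured members, 0 met it in either direction, and this was so under each of 9 settings of scaling, filter, fold and choice of cells.

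Exon length differs between the genes, so their order was taken per kilobase of exon. In summed CPM per kilobase, Glul was highest in LOC at 40.7, followed by Slc17a7 at 15.9, Slc17a6 at 4.07 and Slc17a8 at 0.0743. MOC had the same order, at 40.1, 19.8, 4.02 and 0.0466. Cell by cell the order was less strict. Per kilobase, 13 of the 18 LOC cells and 10 of the 13 MOC cells had more Slc17a7 than Slc17a6, while 15 and 10 had more Glul than Slc17a7. Neighbours in the order thus changed places in several cells, and Slc17a8 exceeded Slc17a6 in LOC 12 and MOC 2, on 1 read each. Without the 3 libraries that stood apart the order of the summed levels was the same, with Slc17a7 at 10.5 CPM per kilobase in LOC and 7.91 in MOC. For scale, Slc18a3, the vesicular transporter of acetylcholine, had a median of 79.8 CPM per kilobase over LOC cells and 2.53 over MOC cells, where Slc17a7 had 10.7 and 8.82 and Slc17a6 had 1.28 and 2.36.

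Glutamate transporter and cholinergic reads were often found in the same library. Of the 22 cells with at least 10 cholinergic reads, 13 had at least 5 reads of Slc17a6, 17 at least 5 of Slc17a7, and 20 at least 5 of Glul. Both Slc17a6 and Slc17a7 reached 5 reads in 16 of all 31 cells, 9 LOC and 7 MOC. Only 3 cells had fewer than 5 reads of both. Of the 9 cells with fewer than 10 cholinergic reads, 6 had at least 5 reads of Slc17a6 and 8 at least 5 of Slc17a7, so that these genes were also read where the cholinergic ones were scarce. Only 3 of the 9 had no cholinergic read.

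The cells richest in cholinergic RNA were not those richest in Slc17a6. Among the 10 cells highest in the summed cholinergic level (506 to 1742 CPM, 7 LOC and 3 MOC), Slc17a6 ran from 0 to 41.8 CPM with a median of 3.54. The 4 cells highest in Slc17a6 had 28 cholinergic reads or fewer. These were LOC 7 with 123 CPM of Slc17a6 and 5 cholinergic reads, LOC 14 with 59.6 and 0, MOC 9 with 58.5 and 6, and LOC 6 with 54.6 and 28. High values of both did occur, as in LOC 11 (41.8 CPM of Slc17a6, 601 cholinergic reads) and LOC 8 (46.1 CPM, 352 reads). Over cells, the Pearson correlation of Slc17a6 with the cholinergic level was -0.22 in LOC (Spearman -0.37, n = 18 cells) and -0.05 in MOC (-0.10, n = 13 cells). Such values are weak for counts this sparse and are no finding. All correlations here describe cells whose points share a library, its depth and its scaling. In all, 112 were computed, 14 for each member in each group.

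Slc17a7 and Glul likewise showed no firm relation to the cholinergic level. In the same 10 cells, Slc17a7 ran from 0.754 to 156 CPM (median 51.5) and Glul from 0 to 320 (median 100.2). The correlation was -0.21 in LOC and -0.27 in MOC for Slc17a7. For Glul it was -0.35 and 0.19. For Slc17a7 in LOC the sign rested on LOC 14, without which the value was 0.02, and in MOC the value without MOC 2 and MOC 13 was -0.19.

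**Figure D2:**
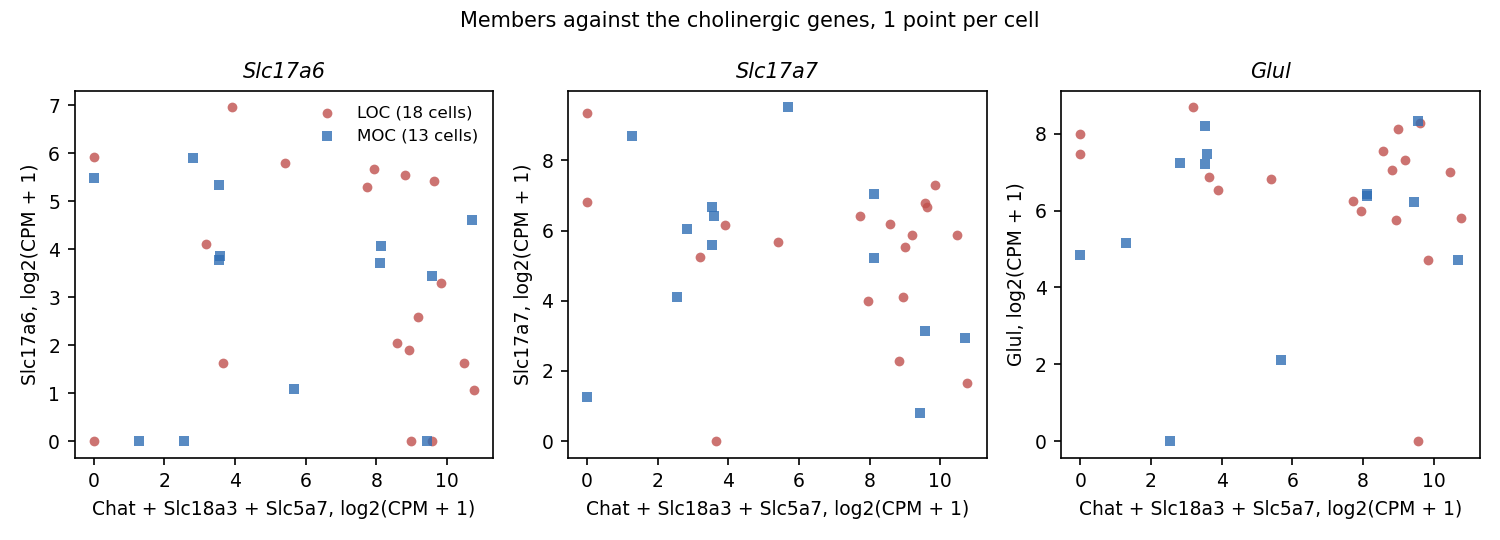
Slc17a6, Slc17a7 and Glul (vertical axes) against the summed level of Chat, Slc18a3 and Slc5a7 (horizontal axes), all as log2(CPM + 1), 1 point per cell, LOC as circles and MOC as squares. No panel shows a steady rise or fall, and the highest Slc17a6 and Slc17a7 values lie at low to middle cholinergic levels.

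The Slc17a7 level followed genes of cerebellar granule cells across most libraries. These are small glutamatergic neurons known for high Slc17a7, and 6 of their genes were used: Gabra6 (a GABA receptor subunit), Cbln3 (a cerebellin), Neurod1 and the Zic1 and Zic2 transcription factors, and Fat2 (a cadherin). This list and the exclusion of the 3 libraries that stood apart were both chosen after the data had been seen. The exclusion rested on the level of Slc17a7 itself. The list summed to 5.68 to 1832 CPM in LOC cells (median 590) and 8.63 to 1234 in MOC cells (median 414). Over all 18 LOC cells the Pearson correlation of Slc17a7 with it was 0.47, and 0.91 without LOC 14. Over all 13 MOC cells it was 0.32, and 0.84 without MOC 2 and MOC 13. LOC 14 and MOC 13 held the lowest levels of the list in their groups, with the highest and the second highest Slc17a7.

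The relation did not hold for the other members. With the group means subtracted and the 28 cells outside the trio, the correlation with the granule list was 0.88 for Slc17a7, 0.12 for Slc17a6 and 0.11 for Glul. Among 14602 genes read in at least 10 cells, Slc17a7 ranked 1st, Slc17a6 8154th and Glul 8422nd. The trio had been left out for its high Slc17a7, a choice made on the ranked gene itself. The 1st rank therefore cannot show how Slc17a7 compares with other genes. With all 31 cells Slc17a7 had 0.40 and ranked 1543rd. Slc17a6 then had 0.08 and ranked 8938th, and Glul had 0.03 and ranked 9925th. Each of the 6 genes alone gave between 0.59 (Zic2) and 0.84 (Cbln3) with Slc17a7 over the 28 cells. Glial markers moved with Slc17a7 in MOC too: over those 11 MOC cells its correlation was 0.63 with the astrocyte list (Spearman 0.85) and 0.42 with the oligodendrocyte list (Spearman 0.74). In the 17 LOC cells these were 0.24 (0.23) and -0.21 (-0.12).

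A split of the same kind was seen among the libraries with a clear cholinergic signal, which are part of those 28 cells and no second observation. In the 17 cells with at least 50 cholinergic reads, the 6 with the least granule RNA (9.72 to 130 CPM of the list) held 0.754 to 16.3 CPM of Slc17a7. These were LOC 15, MOC 3, LOC 8, LOC 1, LOC 4 and MOC 5. The other 11 held 404 to 1832 CPM of the list and 7.72 to 156 CPM of Slc17a7, and the groups of cells overlapped only through MOC 10 at 7.72. The cut lies at the gap in the granule level. Among the 11 cells the levels did not rise together: LOC 12, at 1832 CPM of the list, held 45.4 of Slc17a7, and LOC 18, at 681, held 156. LOC 15, with the most cholinergic reads of all cells (1613), had 2 reads of Slc17a7, and MOC 3, with 914, had 1. Slc17a6 gave no such split, with 0 to 49.9 CPM in the 6 cells with the least granule RNA and 0 to 41.8 in the other 11. The part of granule cell or glial RNA in the Slc17a7 values was not tested.

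**Figure D3:**
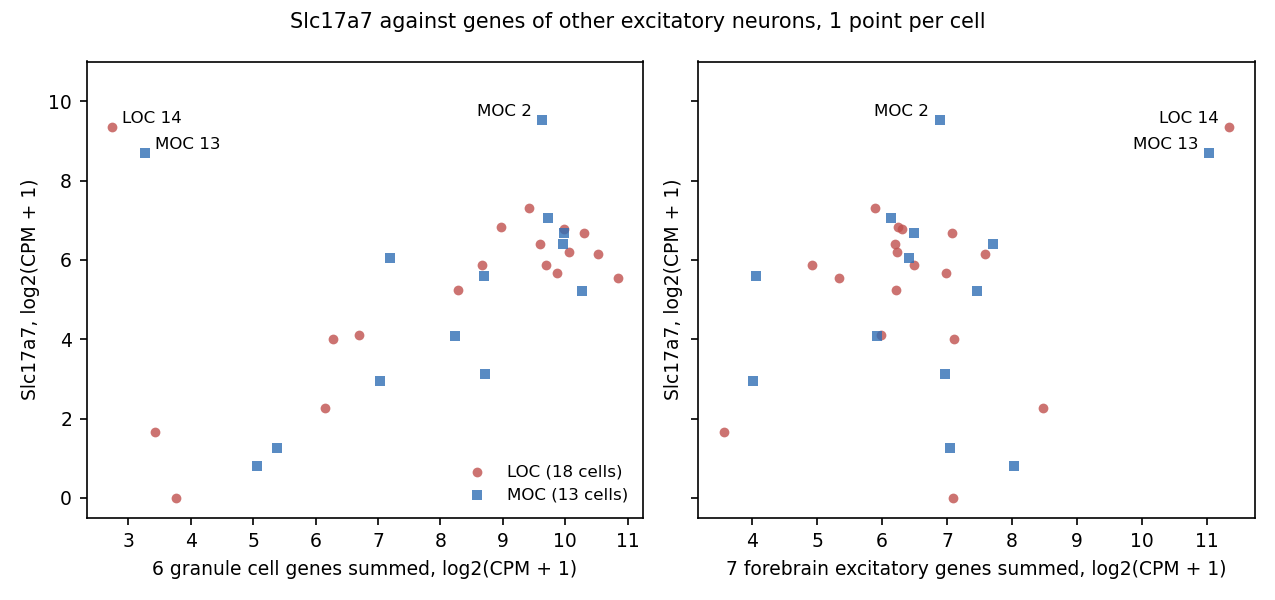
Slc17a7 (vertical axis) against the summed level of 6 cerebellar granule cell genes (left) and of 7 genes of forebrain excitatory neurons (right), all as log2(CPM + 1), 1 point per cell, LOC as circles and MOC as squares. On the left 28 cells rise together, though not steadily at high levels of the list. LOC 14, MOC 2 and MOC 13 are not among them, having been set apart for their high Slc17a7. Over all cells the Pearson correlation was 0.47 in LOC and 0.32 in MOC. LOC 14 and MOC 13 lie at the top left, and on the right these 2 lie alone at 2609 and 2090 CPM of the forebrain genes. MOC 2, at 731 CPM of Slc17a7, is named in both panels.

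Glul varied loosely with glial markers, more clearly in ranks than in levels. Against the 12 astrocyte markers, the Pearson correlation was 0.41 in LOC (Spearman 0.55, n = 18 cells) and 0.43 in MOC (Spearman 0.71, n = 13 cells). Leaving out each cell in turn gave 0.34 (without LOC 9) to 0.54 (without LOC 13) in LOC. In MOC it gave 0.36 (without MOC 7) to 0.73 (without MOC 4). Against the 12 oligodendrocyte markers, the correlation was 0.07 in LOC (Spearman 0.31) and 0.62 in MOC (Spearman 0.71). The LOC value ran from -0.002 (without LOC 13) to 0.39 (without LOC 14), and the MOC value from 0.58 to 0.75. LOC 9, highest in Glul at 413 CPM, held 7188 CPM of astrocyte markers, and MOC 7, at 292 CPM of Glul, held the most astrocyte RNA of any cell, 8097 CPM. Exceptions ran both ways. LOC 13 and MOC 4 had no read of Glul, which allows up to 3.89 and 4.82 CPM, with 2136 and 3828 CPM of astrocyte markers. LOC 14 held 177 CPM of Glul, with 22.7 CPM of oligodendrocyte markers and 1236 CPM of astrocyte markers. Sox9 (a glial transcription factor, 527 CPM) and Slc1a2 (426 CPM) led that list there, and Aqp4, Aldh1l1, Gjb6, Slc7a10 and Ntsr2 had no read. The part of glial RNA in the Glul values was not tested. Slc17a6 also moved with genes of other cells, though not alike in LOC and MOC. Its correlation with 12 microglial markers was 0.63 in MOC and 0.15 in LOC. With the oligodendrocyte list it was 0.53 (0.26 without MOC 2 and MOC 13) and -0.13, and with the astrocyte list 0.22 and -0.11. With 5 inhibitory neuron markers it was 0.55 and -0.20, and with the 7 forebrain genes -0.53 and 0.59. With general neuron markers it was -0.56 and 0.10. Without the 2 cells farthest from the list median, MOC gave 0.41 for microglia, 0.28 for inhibitory neurons and -0.30 for forebrain genes. For oligodendrocytes, astrocytes and general neuron markers MOC gave 0.67, 0.44 and -0.51, and LOC gave 0.60 for forebrain genes. The part of RNA of other cells in the Slc17a6 values was not tested.

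**Figure D4:**
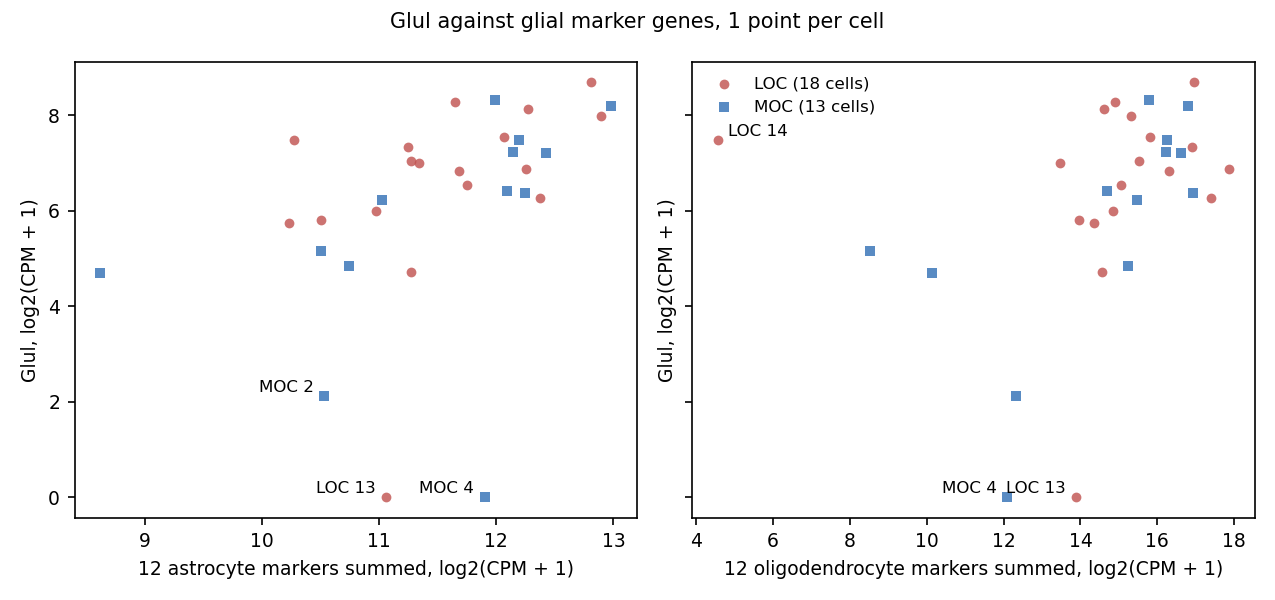
Glul (vertical axis) against the summed level of 12 astrocyte markers (left) and 12 oligodendrocyte markers (right), all as log2(CPM + 1), 1 point per cell, LOC as circles and MOC as squares. Most points rise loosely to the right, LOC 13 and MOC 4 lie at 0, and LOC 14 lies far left on the oligodendrocyte axis at 177 CPM of Glul.

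Slc17a6 and Slc17a7 were only weakly correlated with each other. The correlation of Slc17a6 with Slc17a7 over cells was 0.17 in LOC and -0.14 in MOC. That of Slc17a6 with Glul was 0.25 and 0.57, and that of Slc17a7 with Glul -0.03 and -0.07. The MOC value of 0.57 fell to 0.22 without the 2 cells farthest from the median in Glul. It fell to 0.37 without the 2 farthest in Slc17a6. Without the 3 libraries that stood apart, Slc17a6 with Slc17a7 gave 0.05 in LOC and 0.33 in MOC. Slc17a6 with Glul then gave 0.23 and 0.53, and Slc17a7 with Glul -0.10 and 0.30. Slc17a8, with 8 reads in all, was too sparse to be judged, and its values included 0.44 with Slc17a7 in MOC.

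The genes most like each member were sought among 14608 genes with a read in at least 10 cells, by correlation over the 31 cells after the group means were subtracted. For Slc17a7 they were Arhgap21 (0.83), Klf9 (0.78), Nav3 (0.77), Cnksr2 (0.77) and Sel1l3 (0.72). MOC 2 held 708 CPM of Arhgap21, 1031 of Klf9 and 958 of Nav3, far above their medians over cells of 25.9, 143 and 5.80. Without the 3 libraries that stood apart the 5 values were 0.69 to 0.82. For Glul the 5 were Tmem256, Nbdy, Chst2, Aqp4 and Nudt4, at 0.72 to 0.69, and Aqp4 stood at 0.71 with and 0.81 without those libraries. For Slc17a6 they were Cnrip1 (0.70), Mrps28 (0.69), Elp6 (0.69), Hdgfl3 (0.67) and Mettl26 (0.66), with 0.61 to 0.65 without those libraries. These values are the highest among the 14608 and were chosen for being so.

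The genes that make, move and recycle glutamate and glutamine were in the libraries of both groups. All 21 genes of the glutamate-glutamine cycle were measured. Of these, 1 met the size rule for LOC, 1 for MOC and 19 neither, with a median difference of -0.15, beside -0.07 over all measured genes. Of all measured genes 6.07% met the rule for LOC and 5.67% for MOC. Counts this small, here and in the lists below, are therefore no result about a list, and the genes that met the rule are named singly. Gls2, the liver-type glutaminase, was at 33.3 CPM in LOC and 13.3 in MOC, and no longer met the rule without LOC 5 or without the 3 libraries that stood apart. Slc7a11, the cystine-glutamate exchanger, was at 6.66 CPM in LOC and 33.4 in MOC. MOC 8 gave 53.5% of its MOC reads, and it still met the rule without that cell, at 17.4 CPM. Among the most abundant were Slc1a2 and Slc1a3, the uptake transporters for which astrocytes are known and which are also in the astrocyte list. They stood at 377 and 398 CPM in LOC and at 639 and 365 in MOC. The aminotransferase Got1 was at 201 and 407 CPM and glutamate dehydrogenase, Glud1, at 140 and 279.

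A list of 12 genes was drawn up for enzymes that use glutamine, of which 11 were measured. The other, Lgsn, with 1 read, is a lens relative of glutamine synthetase rather than a glutamine-using enzyme. None met the size rule for LOC and 2 did for MOC, beside 6.07% and 5.67% of all measured genes, with a median difference of -0.34. Both of the genes that met it rested on MOC 2. Gfpt2 (hexosamine synthesis) was at 1.54 CPM in LOC and 37.5 in MOC, but at 2.98 in MOC without that cell. Ctps (CTP synthesis) was at 34.9 and 82.1 CPM, and at 59.4 in MOC without it. Neither met the rule then. Without the 3 libraries that stood apart, the count was 1 for LOC and 0 for MOC in this list, and 0 and 1 in the glutamate-glutamine cycle. Asns (asparagine synthesis) stood at 68.1 CPM in LOC and 106 in MOC, Qars (glutaminyl-tRNA synthesis) at 111 and 51.9, and Gmps (GMP synthesis) at 53.4 and 60.1.

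The rest of the SLC17 family was scarce. Of 6 genes, 2 were measured, and neither met the rule. Slc17a5, the lysosomal sialic acid carrier, was at 4.98 CPM in LOC and 5.13 in MOC, and Slc17a9, the vesicular nucleotide transporter, at 0.491 and 0.953. Slc17a2 had 236 MOC reads, of which MOC 4 gave 97.0%. Of 7 other vesicular transporter and synaptic vesicle genes, 6 were measured. One was higher in LOC by the rule, Slc18a3 at 299 CPM against 88.2, and one in MOC, the vesicle protein Sv2c at 32.8 against 80.7. Both still met the rule without the highest cell of the higher group and without the 3 libraries that stood apart. Slc18a3 is itself one of the cholinergic genes, which had at least 50 reads in 12 of 18 LOC cells and in 5 of 13 MOC cells. The share of cells poor in cholinergic reads thus counts Slc18a3 reads too, and the Slc18a3 difference cannot be told apart from that unequal share. The size of the difference among the rich cells was not tested. Sv2a was at 269 and 390 CPM and Sv2b at 75.5 and 51.8.

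**Figure D5:**
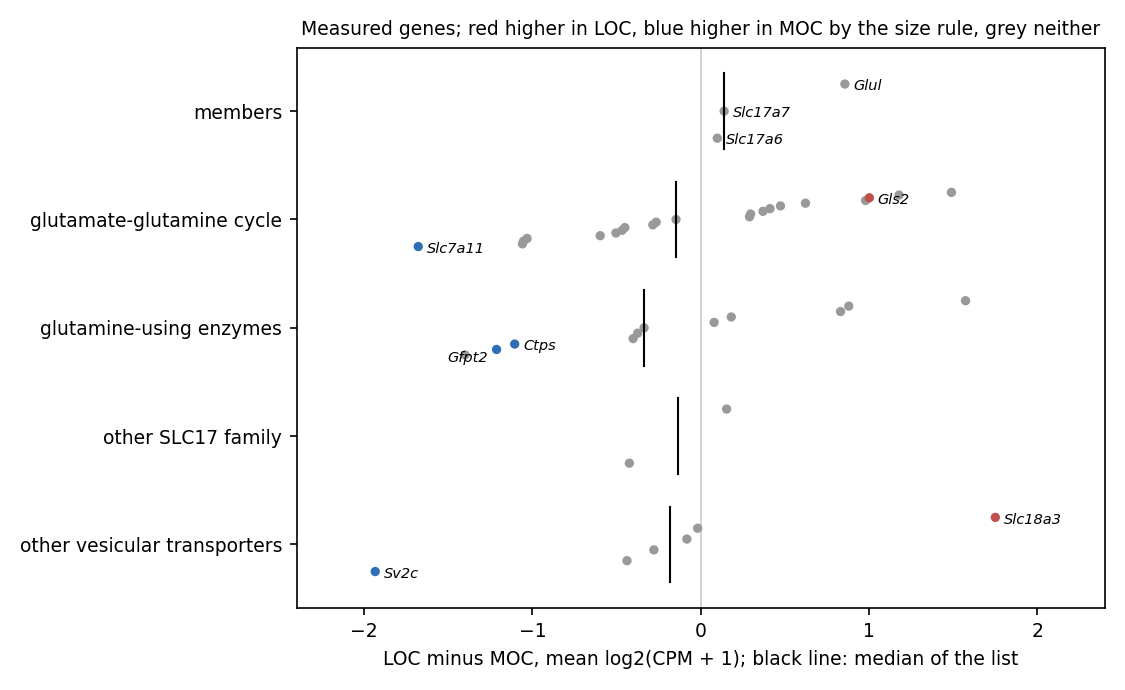
LOC minus MOC difference of the mean log2(CPM + 1) on the horizontal axis for each measured gene of the 5 lists, 1 point per gene, red or blue where the size rule was met for LOC or MOC and grey otherwise; black lines are list medians. The 3 measured members lie between 0.10 and 0.86 without meeting the rule, and the outermost genes that met it are Slc18a3 in LOC and Sv2c in MOC.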

How the data were processed

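The authors deposited raw counts per gene, 1 column per cell, with 55421 mouse gene rows and 19 other rows, which held 0.00454% to 0.0522% of a library's reads and were left out. The authors' second table holds a normalized signal for 20784 rows. Each of its values was the raw count times 1 constant per cell, and it served as an alternative scaling only. The submitters' processing notes name the builds GRCm38 and mm10 and, with no roles, limma, edgeR, DESeq2, STAR 2.5.2 and bcl2fastq. For the counting tool, its annotation and its handling of shared reads: not given in the sources used here. Symbols, positions and transcripts came from GENCODE M21 (GRCm38), which named 55154 rows. Counts were scaled to CPM with Python 3.11.15, numpy 2.4.6, pandas 2.3.3 and scipy 1.17.1. Alternatives used edgeR 4.0.16 TMM sizes and DESeq2 1.42.0 size factors (R 4.3.3), the deposited signal, a pseudocount of 10 in place of 1, a fold of 4 in place of 2, no filter, medians, summed counts, counts thinned to 300000 per cell, and choices of cells. A 0 is read as up to 3 counts, at 95% for intervals. The size rule was run on simulated counts with the same spread for all genes, and was judged only on well-read ones. The likeness search itself was not run on simulated data, and only a planted copy was ranked among random values. Neither setting is like the sparse counts here, so no conclusion is drawn from them.

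The members and gene lists were chosen with earlier results of these data known. The forebrain and granule cell lists, and the settings that leave out LOC 14, MOC 2 and MOC 13, cells rich in microglial or oligodendrocyte RNA, or the 2 cells farthest from a median, were added later, after these files were examined. Genes were named by a rule: the members and cholinergic genes, from each pathway list the genes that met the size rule and the 4 with the highest level, the 2 leading markers of a cell type list in the cell described, and the 5 genes most like each member. Of the marker lists with no size rule count above, microglia had 8 of 12 genes higher in MOC, beside 5.67% of all measured genes. Neuron markers had 2 of 10 higher in MOC, and vascular markers 0 of 10 in either direction. Some genes of the lists are not reported here.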

Additional observations from a re-analysis of the deposited data

How the results depend on the processing

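No paired analysis was possible because no test was run: each library is 1 cell, and the numbers that LOC and MOC cells share only name them. The difference between LOC and MOC moved by less than the spread between cells for all 4 genes under every setting that gave a value, and its sign is not settled for any of them. Leaving out each cell in turn gave -0.17 to 0.32 for Slc17a6, -0.23 to 0.50 for Slc17a7, 0.01 to 0.26 for Slc17a8 and 0.38 (without MOC 4) to 1.24 (without LOC 13) for Glul. The other 12 settings gave -0.84 to 0.61 for Slc17a6, -0.31 to 1.39 for Slc17a7 and -0.26 to 1.19 for Glul, and 11 gave -0.22 to 0.24 for Slc17a8, which has no row in the authors' normalized table. The 1.39 came from the 12 LOC and 5 MOC cells with at least 50 cholinergic reads. The genes that met the size rule, 1078 for LOC and 1007 for MOC, fell to 370 and 209 with a pseudocount of 10 and to 546 and 464 with a fold of 4, both stricter, and came to 1730 for LOC among cells with at least 10 cholinergic reads, where fewer cells entered. Correlations with the cholinergic level ran, leaving out each cell, from -0.49 to -0.09 (LOC) and -0.24 to 0.13 (MOC) for Slc17a6, from -0.46 to 0.02 and -0.59 to -0.11 for Slc17a7, and from -0.41 to -0.30 and 0.03 to 0.28 for Glul. Without LOC 14, MOC 2 and MOC 13, Slc17a6 in MOC gave -0.25. Without the 2 cells farthest from the median, Slc17a7 gave 0.20 in LOC and -0.0624 in MOC, and Glul -0.29 in LOC; the cause was not tested. Thinned to 300000 counts per cell, Slc17a6 was read in 12 LOC and 10 MOC cells, Slc17a7 in 16 and 11, Slc17a8 in 2 and 0, and Glul in 17 and 12.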
